A study of Canis lupus familiaris with 2 samples.

Results

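The ON bipolar mGluR6 cascade was followed here as 10 genes, *GRM6*, *TRPM1*, *NYX*, *GPR179*, *LRIT3*, *GNAO1*, *RGS7*, *RGS11*, *GNG13* and *PCP2*. The genes were taken by name from the gene lists of both dogs. The rule used no measured values, but it was set with earlier results of these data known. All 10 were listed in both dogs, among 15224 names that the dogs share, of 34981 names in N350 and 19930 in N354. Single cells of dissociated neuroretina had been profiled in the 2 dogs by droplet-based RNA sequencing that reads the 3′ end of transcripts and counts each molecule once by its molecular identifier (UMI). N350 and N354 were both normal (wild-type) male dogs of 40 weeks, 1 library each, and no mutant or treated dog was among the samples. The study used these cells to place 2 other genes, both cut by a deletion found in dogs with an inherited day blindness, among the retinal cell types. The comparisons below are therefore between cell types of normal retina, with the dog as the replicate.

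Photoreceptors release glutamate in the dark, and ON bipolar cells answer it with inverted sign. The glutamate receptor mGluR6, encoded by *GRM6*, acts through the G protein Go to hold the cation channel TRPM1 closed, and the channel opens when light stops the release. RGS7 and RGS11 speed the shut-off of Go, and a set of membrane proteins of the dendritic tip and the synaptic cleft holds receptor, channel and RGS proteins in place. Loss of *GRM6*, *TRPM1*, *NYX*, *GPR179* or *LRIT3* is known to cause complete congenital stationary night blindness. OFF bipolar cells use ionotropic glutamate receptors in place of this cascade.

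Cell classes were gated on raw UMIs of marker genes, none of which belongs to the cascade. A cell was rod bipolar-like when it passed the gate for bipolar cells, held at least 3 UMIs from at least 2 of the genes *PRKCA*, *CA8*, *SEBOX*, *CABP5* and *VSTM2B* and held 0 UMIs of the OFF bipolar genes *GRIK1*, *TACR3*, *LHX3*, *FEZF1*, *FEZF2* and *NETO1*. *SEBOX* and *FEZF1* were not listed in N354, so that the gate rested there on 4 and 5 of these genes. This gave 176 rod bipolar-like cells in N350 and 152 in N354, 1.98% and 3.46% of the cells kept. OFF bipolar-like cells, with at least 2 UMIs of the OFF genes and under 3 UMIs of the rod bipolar genes, numbered 40 and 29, and 119 and 80 bipolar cells met neither rule. Rods numbered 5062 and 2958 cells, cones 324 and 190, Müller glia 1244 and 616, amacrine and ganglion cells 326 and 36, horizontal cells 136 and 22, and astrocytes 100 and 46. A level is the number of UMIs of a gene per 10000 UMIs, from the sums over one class in one dog, with exact Poisson 95% intervals in parentheses. These intervals, like the exact intervals of shares and of ratios, cover counting error only.

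The split between the bipolar classes was set beside *ISL1*, a transcription factor of ON bipolar cells that the split did not use. *ISL1* was, however, among the marker genes of the gate for bipolar cells, as was the OFF gene *GRIK1*. Its level is thus no check on which cells were admitted as bipolar. *ISL1* stood at 7.90 in N350 and 9.65 in N354 in rod bipolar-like cells and at 0 in the OFF bipolar-like cells of both dogs.

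N350 held 8900 cells with a median of 1298 UMIs, and N354 held 4392 cells with a median of 1204.5. Rod bipolar-like cells were deeper, with medians of 2394 and 2724.5 UMIs, than OFF bipolar-like cells (1558.5 and 2421) and rods (1075 and 1015). Mitochondrial genes took 14.9% and 18.2% of the UMIs of rod bipolar-like cells, against 14.3% and 10.6% in OFF bipolar-like cells and 5.91% and 7.23% in rods. The rod marker list, which a bipolar cell should lack, stood at 54.1 and 25 UMIs per 10000 in rod bipolar-like cells, against 617 and 729 in rods. The part of mitochondrial share, depth and rod RNA in the results was not tested, apart from the values given beside them. The libraries were counted on different gene annotations, so that dog and annotation cannot be told apart, and 6 cell barcodes occurred in both libraries.

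**Figure D1:**
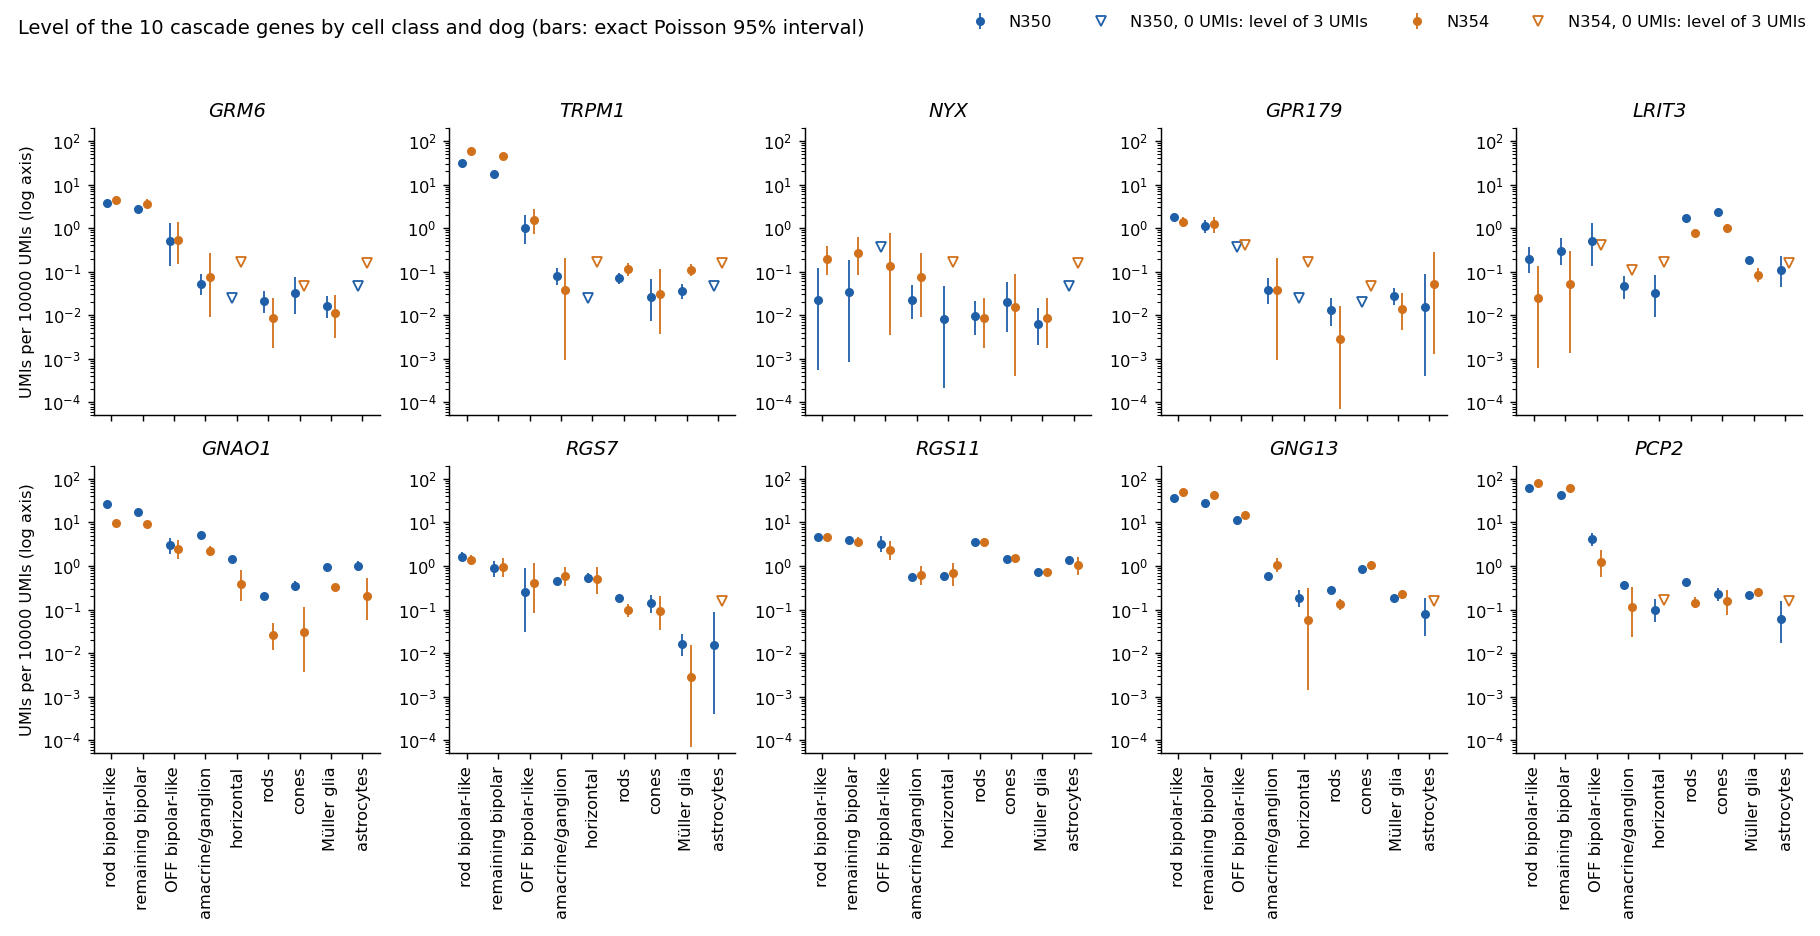
Level of each of the 10 cascade genes (UMIs per 10000 UMIs, log axis) in 9 cell classes of N350 and N354, with exact Poisson 95% intervals; an open triangle marks the level of 3 UMIs where a class held 0. In both dogs *GRM6*, *TRPM1*, *GPR179*, *GNAO1*, *GNG13* and *PCP2* were highest in rod bipolar-like cells, *LRIT3* was highest in cones and rods, and *RGS11* was nearly as high in rods as in rod bipolar-like cells.

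Most of the cascade genes had their highest level in the bipolar cells, and *LRIT3* in the photoreceptors. Rod bipolar-like cells were compared with other classes by edgeR's quasi-likelihood test on UMI counts summed by dog and class, with Benjamini-Hochberg adjustment over 12141 genes. All 10 cascade genes passed the minimum of 10 UMIs over all sums. Against the mean of the classes outside the bipolar cells, 8 of the 10 genes were higher, where 4.54% of all genes tested were, and 0 were lower, where 1.17% of all genes were. The median log2 fold change of the 10 genes was 6.05, against -0.09 over all genes, and 5.41 with the 5 genes that had a class at 0 UMIs in every library set to a bound of 3 UMIs per library. *NYX* (log2 fold change 3.98, SE 1.07, adjusted p = 0.0554) and *LRIT3* (-0.52, SE 1.08, adjusted p = 1) did not pass. The value of *NYX* depended on classes at 0 UMIs and was 1.22 at the bound. The fitted fold changes are on edgeR's own scaling and differ from the ratios of the levels.

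Against rods, the most numerous cells, 7 of the 10 genes were higher, with a background of 3.79% of all genes, and 0 were lower, with a background of 2.58%. The median over the 10 genes was 7.21, against -0.31 over all genes. *RGS11*, *NYX* and *LRIT3* did not pass the test against rods. Against OFF bipolar-like cells 3 genes, *TRPM1*, *GPR179* and *PCP2*, were higher, with a background of 0.445%, and 0 were lower, with a background of 0.469%. Here the median was 2.99, against 0.19 over all genes, and 2.48 with *GPR179* at its bound.

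Samples of 1 dog share an animal and a library, and the deviations of its classes moved together, so the same fits were made with the dog as a block. With the block 9 genes were higher than in the classes outside the bipolar cells and 0 were lower, with backgrounds of 10.8% and 7.18%. The gene gained was *NYX* (log2 fold change 3.61, adjusted p = 0.0172), of which rod bipolar-like cells held 1 UMI in N350 and 8 in N354. Against rods 8 were higher and 1, *LRIT3*, was lower, with backgrounds of 10.9% and 14.5%. Against OFF bipolar-like cells 8 were higher and 0 were lower, with backgrounds of 3.53% and 2.88%. The genes gained against OFF bipolar-like cells were *GRM6*, *GNAO1*, *RGS7*, *RGS11* and *GNG13*, and the adjusted p of *NYX* was 0.841 and that of *LRIT3* 0.84.

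**Figure D2:**
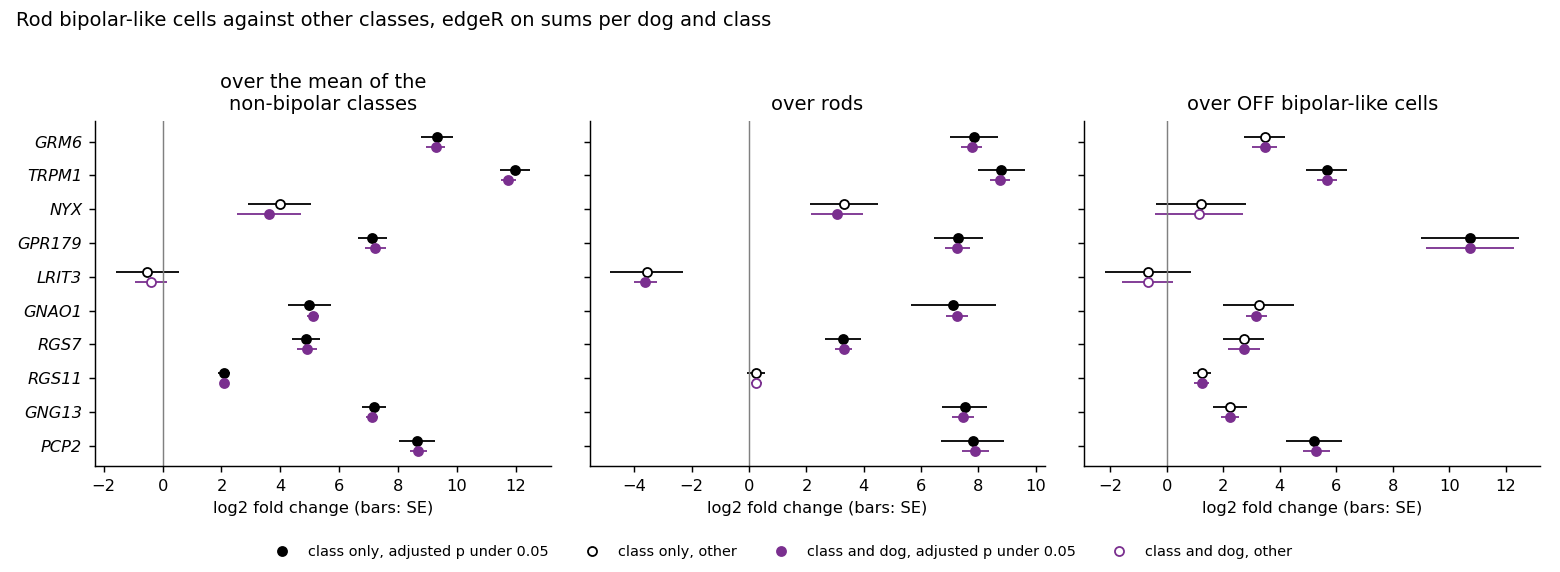
Fitted log2 fold change of each cascade gene (points, with SE as bars) in rod bipolar-like cells over the mean of the classes outside the bipolar cells, over rods and over OFF bipolar-like cells; black points come from the fit on class only, purple points from the fit with the dog as a block, and filled points have an adjusted p under 0.05. *TRPM1*, *GPR179* and *PCP2* are filled in all 3 comparisons of both fits, and *LRIT3* lies below 0 in each. Genes with a class at 0 UMIs are drawn at their fitted values and not at their bounds. In the fit on class only *GPR179* over OFF bipolar-like cells is drawn at 10.7, where its bound was 2.03, so the size of that point cannot be read.

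The receptor gene *GRM6* was highest in the rod bipolar-like cells. It stood at 3.78 (3.23 to 4.39) in the rod bipolar-like cells of N350 and at 4.39 (3.77 to 5.09) in those of N354. The remaining bipolar cells had 2.73 and 3.63, and OFF bipolar-like cells 0.501 (0.137 to 1.28) and 0.545 (0.149 to 1.4), from 4 UMIs in each dog. Both dogs thus had the same order of the 3 bipolar classes, with no overlap between rod bipolar-like and OFF bipolar-like cells. Rod bipolar-like cells exceeded OFF bipolar-like cells 7.54 times (2.89 to 28.0) in N350 and 8.05 times (3.09 to 29.9) in N354. Rods were near the floor, with 0.0209 and 0.00854, from 13 and 3 UMIs, and horizontal cells and astrocytes held 0 UMIs in both dogs. The difference from rods passed the test (log2 fold change 7.84, SE 0.83, adjusted p = 0.000601). That from OFF bipolar-like cells passed with the dog as a block (3.47, SE 0.45, adjusted p = 5.75e-06) and missed the threshold without it (adjusted p = 0.0644).

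A *GRM6* UMI was found in 59.7% (52.0 to 67.0) of rod bipolar-like cells in N350, and N354 had 69.1% (61.1 to 76.3). Thinned to 1000 UMIs a cell, the shares were 34.8% and 37.5%, against 4.43% and 8.63% of OFF bipolar-like cells. The unthinned shares of OFF bipolar-like cells were 10.0% and 13.8%. In rods, which should lack the receptor, 0.198% and 0.101% of cells held a UMI. Of the *GRM6* UMIs of all cells, 369 and 290, rod bipolar-like cells held 46.3% and 61.0%.

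*TRPM1*, the channel gene, had the same order of the bipolar classes. Its level was 31.4 (29.8 to 33.0) in the rod bipolar-like cells of N350 and 57.8 (55.5 to 60.2) in those of N354. The remaining bipolar cells had 17.9 and 46.3, and OFF bipolar-like cells 1.0 (0.433 to 1.97) and 1.5 (0.749 to 2.68). The dogs differed by a ratio of 1.84 (1.73 to 1.97) in rod bipolar-like cells, N354 over N350, and this gap was smaller than the gap to the OFF bipolar-like cells of either dog. Rod bipolar-like cells exceeded OFF bipolar-like cells 31.3 times (15.8 to 72.7) in N350 and 38.6 times (21.5 to 77.4) in N354. *TRPM1* passed the test against OFF bipolar-like cells (log2 fold change 5.67, SE 0.73, adjusted p = 0.0075) and against rods (8.79, SE 0.82, adjusted p = 0.000388).

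Nearly every rod bipolar-like cell held the channel transcript, 94.9% of cells in N350 and 100% in N354, and 90.3% and 99.3% after thinning. In OFF bipolar-like cells the unthinned shares were 10.0% and 10.3%, and in the remaining bipolar cells 58.0% and 85.0%. Rods stood at 0.0706 and 0.114 UMIs per 10000 and Müller glia at 0.0354 and 0.110, levels that did not separate these classes in both dogs. A UMI of *GRM6* or *TRPM1* was found in 96.6% and 100% of rod bipolar-like cells, and cells with *GRM6* alone numbered 3 and 0, against 65 and 47 with *TRPM1* alone. Since nearly all of these cells held *TRPM1*, few cells with *GRM6* alone could occur. Among OFF bipolar-like cells, 1 and 0 held both, 3 and 4 *GRM6* alone and 3 and 3 *TRPM1* alone.

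Of the genes that hold the complex together, *GPR179*, an orphan receptor that tethers RGS7 and RGS11 to the dendritic tip, followed the receptor. It stood at 1.81 (1.44 to 2.25) in N350 and 1.41 (1.07 to 1.83) in N354 in rod bipolar-like cells, and at 1.11 and 1.21 in the remaining bipolar cells. OFF bipolar-like, horizontal and cone cells held 0 UMIs of *GPR179* in both dogs. Set against 3 UMIs in the OFF bipolar-like cells of a dog, the level in rod bipolar-like cells was at least 4.82-fold higher in N350 and at least 3.46-fold higher in N354. It also passed the test against rods (log2 fold change 7.30, SE 0.85, adjusted p = 0.00119), in which 8 and 1 UMIs were counted. A *GPR179* UMI was found in 36.9% and 28.9% of rod bipolar-like cells, and in 18.3% and 13.7% after thinning.

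*NYX*, which encodes nyctalopin, a leucine-rich repeat protein that binds TRPM1 at the dendritic tip, was hardly detected. Only 27 UMIs were counted in each dog over all cells. Rod bipolar-like cells held 1 UMI in N350 and 8 in N354, levels of 0.0221 and 0.198 (0.0856 to 0.391), and the remaining bipolar cells held 1 and 5. Amacrine and ganglion cells held 6 and 2 *NYX* UMIs, rods 6 and 3, and Müller glia 5 and 3. At this depth the order of the bipolar classes for *NYX* could not be read. It passed the threshold against rods with the dog as a block (log2 fold change 3.06, SE 0.90, adjusted p = 0.0110) and not without it (adjusted p = 0.155), and the fitted value rested on N354, being 1.0 without N354 and 4.41 without N350.

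*LRIT3* stood apart from the other members of the complex. It encodes a leucine-rich repeat protein of the synaptic cleft that is required for TRPM1 at the bipolar dendrites and is known to be made by photoreceptors as well. Cones had 2.31 (2.08 to 2.57) in N350 and 0.984 (0.756 to 1.26) in N354, and rods 1.70 (1.60 to 1.80) and 0.771 (0.682 to 0.869). Rod bipolar-like cells had 0.199 (0.0909 to 0.377) and 0.0248, from 9 UMIs and 1 UMI. In both dogs the photoreceptors were thus above every bipolar class, although N354 had lower levels than N350 throughout.

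Rods held 62.9% and 71.1% of the 1682 and 381 *LRIT3* UMIs, and cones 20.9% and 16.5%. Rods over cones gave a ratio of 0.734 (0.650 to 0.830) for N350, and N354 gave 0.784 (0.594 to 1.05), so that the interval excluded 1 in N350 only. A UMI of *LRIT3* was found in 50.3% and 23.2% of cones and in 17.7% and 8.69% of rods. Thinned to 1000 UMIs, cones were at 19.7% and 8.50%, and rods at 14.9% and 7.68%. The share in rod bipolar-like cells was 4.55% and 0.658%, and 1.71% and 0.180% after thinning. Against rods, *LRIT3* was lower in rod bipolar-like cells with the dog as a block (log2 fold change -3.62, SE 0.41, adjusted p = 4.53e-08), and missed the threshold without it (-3.57, SE 1.28, adjusted p = 0.149).

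The little *LRIT3* in rod bipolar-like cells was set beside the RNA of rods found there. The 8 rod marker genes listed in both dogs together stood in rod bipolar-like cells at 9.36% (8.94 to 9.80) of their rod level in N350 and 3.43% (3.22 to 3.64) in N354. These genes also set the gate for rods, and cells that passed several gates were left out. The gate can thus lower their percent outside rods, and *LRIT3* and *RGS11* were not gated on. The size of this effect was not tested. *LRIT3* stood at 11.7% (5.34 to 22.3) and 3.21% (0.0811 to 18.1) of its own, within the counting error of the rod markers. With the 4% of cells with the highest doublet scores removed, 3 and 0 UMIs of *LRIT3* were left in rod bipolar-like cells, a level of 0.0730 in N350. These few UMIs do not separate a low level of the cells themselves from RNA of rods. Cones were at 136% (120 to 154) and 128% (95.4 to 168) of the rod level of *LRIT3*, where the rod markers were at 10.7% and 5.63%. Müller glia had *LRIT3* at 11% (9.22 to 13.1) and 11% (7.25 to 16.0) of the rod level, above the rod markers at 5.30% and 6.01%. The annotated gene *LRIT3* overlaps *RRH*, a gene of which Müller glia held 3186 and 532 UMIs, and the part of this overlap in the Müller value was not tested.

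**Figure D3:**
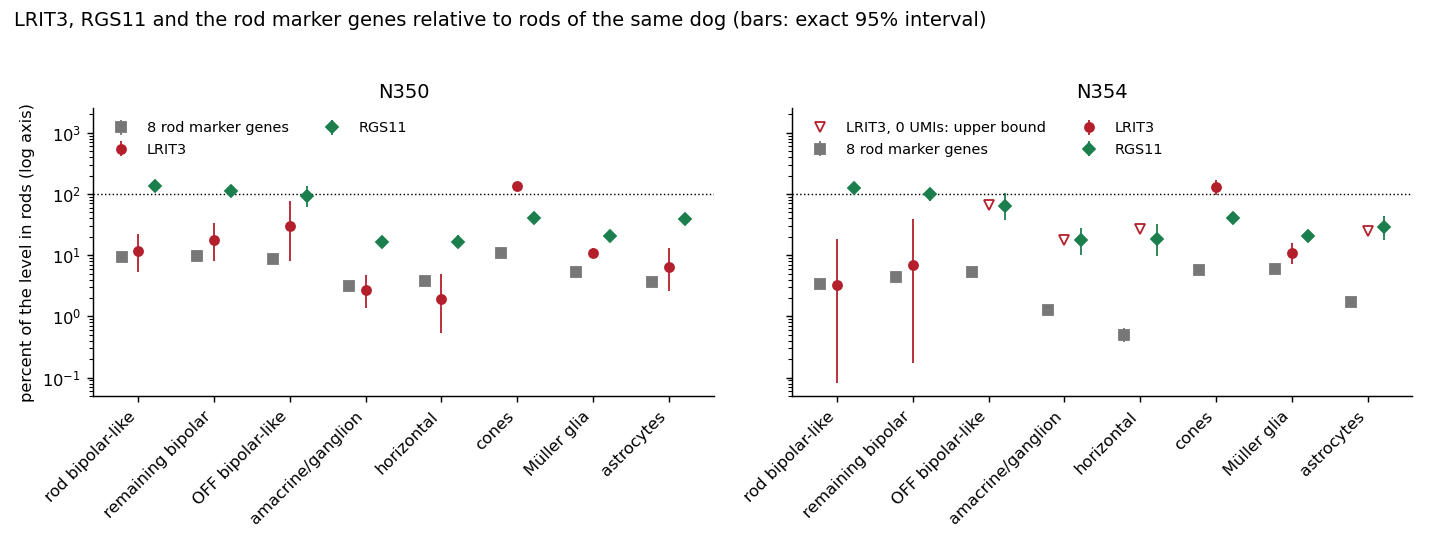
Level of *LRIT3*, of *RGS11* and of the 8 rod marker genes together in each class, as a percent of the level in rods of the same dog (log axis, bars are exact 95% intervals, open triangles are upper bounds where *LRIT3* had 0 UMIs). *LRIT3* lies with the rod markers in rod bipolar-like cells and far above them in cones, and *RGS11* lies near 100% in the bipolar classes.

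*GNAO1*, *GNG13* and *PCP2* were also highest in rod bipolar-like cells. *GNAO1*, the alpha subunit of Go, stood at 26.7 (25.2 to 28.3) in the rod bipolar-like cells of N350 and at 9.70 (8.76 to 10.7) in those of N354. The ratio of N354 to N350 was 0.363 (0.323 to 0.407), in the opposite direction to *TRPM1*, *GNG13* and *PCP2*. The remaining bipolar cells had 17.5 and 9.15, amacrine and ganglion cells 5.03 and 2.24, OFF bipolar-like cells 3.01 and 2.45, and rods 0.204 and 0.0256. *GNAO1* was thus highest in the bipolar cells and also present in amacrine and ganglion cells of both dogs. Amacrine and ganglion cells held 24.8% of its UMIs in N350 and 6.79% in N354, rod bipolar-like cells 22.7% and 44.2%. Between rod bipolar-like and OFF bipolar-like cells the ratio was 8.89 (5.94 to 13.9) and 3.95 (2.47 to 6.74), and the test gave a log2 fold change of 3.26 (SE 1.26, adjusted p = 0.349), or 3.17 (SE 0.38, adjusted p = 9.82e-07) with the dog as a block. In the annotation table at hand *GNAO1* overlaps 5 noncoding genes that only N350 lists, and their part in the gap between the dogs was not tested.

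*GNG13*, the gamma subunit paired with Go in ON bipolar cells, was also present in OFF bipolar-like cells. Rod bipolar-like cells had 36.8 (35.0 to 38.6) and 49.6 (47.4 to 51.8), the remaining bipolar cells 28.5 and 42.9, and OFF bipolar-like cells 11.1 (8.95 to 13.7) and 15 (12.3 to 18.1). The ratio of rod bipolar-like to OFF bipolar-like cells was nearly the same in both dogs, 3.30 (2.66 to 4.13) and 3.31 (2.73 to 4.04). OFF bipolar-like cells were in turn 38.8 and 112 times above rods, which had 0.287 and 0.134. A *GNG13* UMI was found in 77.5% and 79.3% of OFF bipolar-like cells, and in 59.8% and 71.1% after thinning. The lower level of the OFF bipolar-like cells passed the test with the dog as a block (log2 fold change 2.24, SE 0.31, adjusted p = 1.15e-05) and not without it (SE 0.61, adjusted p = 0.134).

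*PCP2*, a small protein that modulates Go and is known from Purkinje cells and ON bipolar cells, had 61.2 (58.9 to 63.5) UMIs per 10000 in the rod bipolar-like cells of N350 and 81.9 (79.1 to 84.7) in those of N354. OFF bipolar-like cells had 4.13 (2.85 to 5.80) and 1.23 (0.561 to 2.33), and rods 0.425 and 0.145. The classes did not overlap, and the ratio of rod bipolar-like to OFF bipolar-like cells was 14.8 (10.5 to 21.5) and 66.7 (35.1 to 146). *PCP2* passed the test against OFF bipolar-like cells (log2 fold change 5.21, SE 0.99, adjusted p = 0.026) and against rods (7.80, SE 1.10, adjusted p = 0.00127). The transcript was found in 97.2% and 100% of rod bipolar-like cells, against 8 of 40 and 2 of 29 OFF bipolar-like cells.

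The RGS genes, whose products end the signal of Go, differed in where they were found. *RGS7* had 1.63 (1.28 to 2.05) in the rod bipolar-like cells of N350 and 1.39 (1.05 to 1.80) in those of N354. It was next highest in the remaining bipolar cells, at 0.878 and 0.946, and then in amacrine and ganglion cells, at 0.449 and 0.596, and in horizontal cells, at 0.537 and 0.508. OFF bipolar-like cells held 2 and 3 UMIs of *RGS7*, and rods had 0.183 and 0.0968. *RGS7* was thus shared with neurons of the inner retina and highest in rod bipolar-like cells, with a ratio to rods of 8.93 and 14.3 (log2 fold change 3.28, SE 0.63, adjusted p = 0.00779).

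*RGS11*, by contrast, was found in rods at nearly the level of the bipolar cells. Rod bipolar-like cells had 4.68 (4.07 to 5.35) and 4.59 (3.95 to 5.30), the remaining bipolar cells 3.88 and 3.63, rods 3.53 (3.38 to 3.68) and 3.64 (3.44 to 3.84), and OFF bipolar-like cells 3.26 (2.13 to 4.77) and 2.32 (1.35 to 3.71). Rod bipolar-like cells exceeded rods by a ratio of 1.33 (1.15 to 1.53) and 1.26 (1.08 to 1.47), which did not pass the test (log2 fold change 0.25, SE 0.31, adjusted p = 0.855, or 0.416 with the dog as a block). Rods held 53.5% and 61.2% of the 4109 and 2087 UMIs of *RGS11*, and 33.3% and 32.8% of rods held a UMI, or 28.6% in each dog after thinning. The level in rods was 4.87 times that in Müller glia in each dog (4.44 to 5.35 and 4.26 to 5.58), and 2.44 and 2.43 times that in cones. Rods thus stood above cones, Müller glia and amacrine and ganglion cells in both dogs. In Müller glia *RGS11* was at 20.5% of its rod level in each dog, above the 5.30% and 6.01% of the rod markers, which unlike *RGS11* set the gate for rods.

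Levels of *RGS11* were also the closest between the dogs, with 0.980 (0.80 to 1.2) as the ratio of N354 to N350 in rod bipolar-like cells. The means over the dogs in these cells were 4.63 ± 0.0659 (SD, n = 2) for *RGS11*, 4.08 ± 0.434 for *GRM6*, 1.61 ± 0.281 for *GPR179* and 1.51 ± 0.173 for *RGS7*. Those of *TRPM1*, 44.6 ± 18.7, *GNAO1*, 18.2 ± 12, *GNG13*, 43.2 ± 9.06, and *PCP2*, 71.5 ± 14.6, varied more between the dogs.

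The order of the classes was the same at the top for most of the cascade. Rod bipolar-like cells were above the remaining bipolar cells for *GRM6*, *TRPM1*, *GPR179*, *GNAO1*, *RGS7*, *RGS11*, *GNG13* and *PCP2* in each dog, by ratios between 1.06 (*GNAO1* in N354) and 1.86 (*RGS7* in N350). Within a dog the interval of this ratio excluded 1 in both dogs for *TRPM1*, *GNG13* and *PCP2*. It excluded 1 in N350 and not in N354 for *GRM6*, *GPR179*, *GNAO1* and *RGS7*, and in neither dog for *RGS11*, with 1.21 (0.956 to 1.53) and 1.26 (0.954 to 1.69). The remaining bipolar cells held OFF bipolar genes at a summed level of 5.47 in N350 and 4.52 in N354. OFF bipolar-like cells had 28.4 and 20.4, and the gate set rod bipolar-like cells to 0. The ratios are thus no comparison of rod bipolar cells with other ON bipolar cells alone. The part of this OFF content in the ratios and in the order of the bipolar classes was not tested. Below the bipolar classes, neighbours in the order were often not separated. By the ranges over the dogs, cones, rods and Müller glia overlapped for *GRM6*, and rods, Müller glia and amacrine and ganglion cells for *TRPM1*. For *GNAO1* each of horizontal cells, Müller glia, astrocytes, cones and rods overlapped the next in that order, while rods lay below Müller glia in both dogs. For *LRIT3* cones and rods overlapped with each other, and OFF bipolar-like cells and the classes that followed were not separated from their neighbours.

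Single rod bipolar-like cells held UMIs of several cascade genes at once. The median cell held UMIs of 6 of the 10 genes in each dog, with a range of 1 to 9 in N350 and 3 to 8 in N354, and at least 4 genes were found in 96.6% and 99.3% of cells. OFF bipolar-like cells held a median of 2 in each dog, with at least 4 genes in 12.5% and 17.2% of cells, and in rods 0.257% and 0.0676% of cells reached 4. The remaining bipolar cells lay between, with a median of 5 and at least 4 genes in 71.4% and 86.2% of cells. The summed level of the 10 genes was 168 and 211 UMIs per 10000 in rod bipolar-like cells, 23.8 and 23.6 in OFF bipolar-like cells and 6.44 and 4.94 in rods. These counts per cell were not thinned, and the classes differed in depth as given above.

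**Figure D4:**
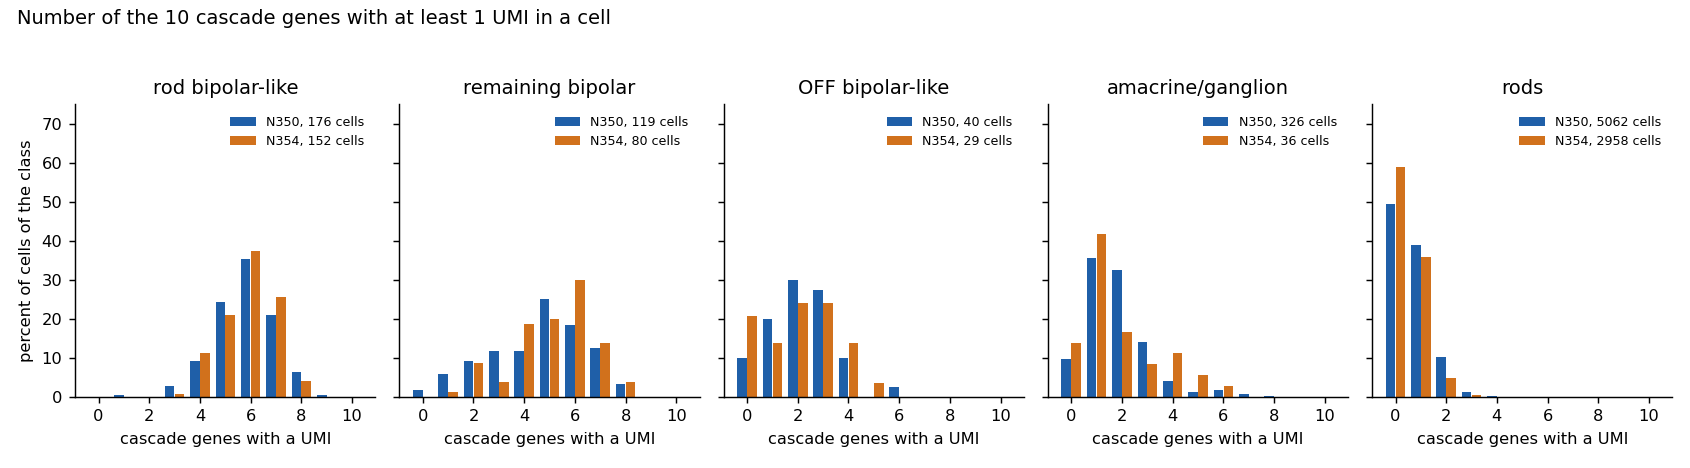
Percent of cells (vertical axis) by the number of cascade genes with at least 1 UMI (horizontal axis) in 5 classes of N350 and N354. Rod bipolar-like cells peak near 6 genes in both dogs, and OFF bipolar-like cells near 2.

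The level per cell was also taken over rod bipolar-like cells of at least 1000 UMIs, 162 in N350 and 151 in N354. The level of *TRPM1* per cell had a median of 30.1 in N350, with a 10th to 90th percentile range of 8.44 to 48.6, and of 58.6 in N354, with a range of 31.3 to 82.7. The cells of the dogs thus overlapped although their sums did not. Among these cells *TRPM1* was at 0 in 5 and 0 cells, *GRM6* in 61 and 47, *GNAO1* in 6 and 22, *PCP2* in 4 and 0 and *GNG13* in 2 and 0. The level of a single cell includes counting error, and its part in this spread and in the cells at 0 was not tested.

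**Figure D5:**
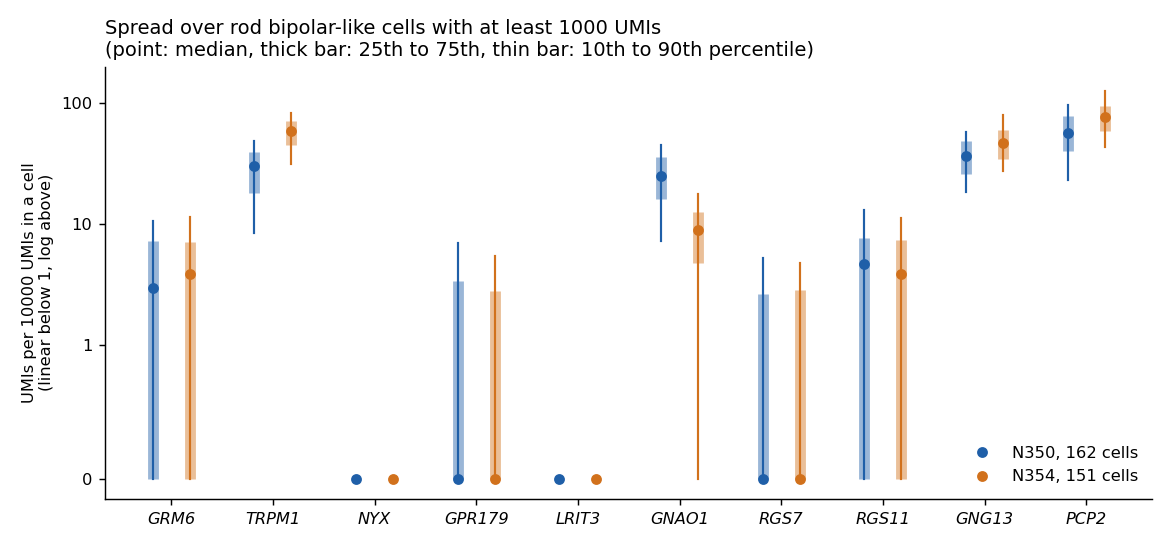
Spread of the level per cell (UMIs per 10000 UMIs of the cell) of the cascade genes over rod bipolar-like cells with at least 1000 UMIs, 162 cells of N350 and 151 of N354, drawn as quantiles over cells. *TRPM1* has its median at 30.1 in N350 and 58.6 in N354, and *GRM6* lies near 0 in many cells of both dogs.

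Over the 19 sums of dogs and classes, *GRM6* was most like *TRPM1* of 8243 genes with enough UMIs, with a Pearson r of 0.997 between log2 levels. *PCP2* (0.992) came second, *GPR179* (0.955) was in place 14, *GNG13* (0.947) in place 18, *GNAO1* (0.876) in place 67, *RGS7* (0.833) in place 91 and *RGS11* (0.737) in place 184. *LRIT3* had an r of -0.200 and was in place 5975. Outside the cascade and the marker lists, the genes most like *GRM6* were *CLVS1* (0.985), *KALRN* (0.978), *PPM1L* (0.974), *NTNG1* (0.971) and *LDB2* (0.969). Those most like *TRPM1* were *CLVS1* (0.982), *KALRN* (0.97), *FAM13C* (0.968), *PPM1L* (0.967) and *NTNG1* (0.965). These r describe sums that share libraries, depth and a gene annotation within each dog, and *NYX* had too few UMIs to enter.

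Of 20 further genes of the same synapse and cascade 18 were tested, since *ELFN1* and *CACNA2D4* were not listed in N354. Against the classes outside the bipolar cells 4 were higher and 0 lower by edgeR's test, with a median log2 fold change of 0.42, and at an unadjusted p under 0.05 7 were higher and 1 lower. No share of all genes was taken at an unadjusted p, so the unadjusted counts given here have no background and nothing is read from them. The 4 were *GNB3* (4.65, adjusted p = 0.00395), the beta subunit of Go in these cells, *GPR158* (4.68, adjusted p = 0.000493), a receptor related to *GPR179*, *LRIT1* (2.88, adjusted p = 0.00246), related to *LRIT3*, and *CACNA1F* (3.16, adjusted p = 0.00256), a calcium channel of the synapse. Against rods 1 was higher, *GPR158* (4.16, adjusted p = 0.00617), and 2 were lower, with a median of -1.32. The other genes of the 4 did not pass as higher than in rods in the fit on class only. *GNB3* was at 5.80 (adjusted p = 0.0507), *LRIT1* at 0.13 and *CACNA1F* at -1.06 (adjusted p = 0.419). With the dog as a block *GNB3* was higher than in rods (6.12, adjusted p = 3.95e-13) and *CACNA1F* was lower (-1.06, adjusted p = 0.00624). With the block *GNB3* was also higher than in OFF bipolar-like cells (5.81, adjusted p = 4.82e-08). Against OFF bipolar-like cells 0 were higher by edgeR's test and 1 lower, with a median of 0, where 3 were higher and 1 lower at an unadjusted p under 0.05 and DESeq2 called 1 higher and 1 lower. Of all 12141 genes DESeq2 called 69 higher and 183 lower in this comparison, and 2590 had no adjusted p. With the dog as a block the counts higher and lower were 6 and 1, 3 and 9, and 2 and 2. Against all genes, of which 4.54%, 3.79% and 0.445% were higher in these comparisons without the block and 10.8%, 10.9% and 3.53% with it, 1 of 18 higher than in rods, or 3 of 18 with the block, is near the background. Of all genes 1.17%, 2.58% and 0.469% were lower without the block and 7.18%, 14.5% and 2.88% with it. The 2 of 18 lower than in rods, or 9 of 18 with the block, are a larger share than that.

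The genes lower than in rods were *EGFLAM* (log2 fold change -3.97, adjusted p = 0.00832), which encodes pikachurin, and *DMD* (-3.57, adjusted p = 0.0143), which encodes dystrophin, both of the photoreceptor side of the synapse. *EGFLAM* stood at 1.65 and 1.72 in rods and at 0.155 and 0.0744 in rod bipolar-like cells, and *DMD* at 8.86 and 12.9 in rods and at 0.861 and 1.12 in rod bipolar-like cells. The rod marker genes stood in rod bipolar-like cells at 9.36% and 3.43% of their rod level. The part of rod RNA in the *EGFLAM* and *DMD* levels of these cells was not tested. *GRM7*, another glutamate receptor of the group of *GRM6*, was the gene lower than in OFF bipolar-like cells (-6.33, adjusted p = 0.0164), with 1 and 0 UMIs in rod bipolar-like cells and 10 and 12 in the OFF bipolar-like cells. In each dog *GRM6* was thus higher in rod bipolar-like cells and *GRM7* in OFF bipolar-like cells. The OFF bipolar-like cells also held 4 UMIs of *GRM6* in each dog.

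*GNB3* was shared with cones. It stood at 14.3 and 7.91 in rod bipolar-like cells and at 28.8 and 9.64 in cones, against 0.626 and 0 in OFF bipolar-like cells and 0.306 and 0.0427 in rods. *GNB5*, the obligate partner of RGS7 and RGS11, had 2.05 and 1.49 in rod bipolar-like cells and 4.52 and 2.99 in rods. *RGS9BP*, which anchors RGS proteins, had 1.32 and 0 in rod bipolar-like cells and 8.38 and 0.515 in rods. Both were thus higher in the rods than in the rod bipolar-like cells of each dog. The differences did not pass the test (adjusted p = 0.373 and 0.681), and passed with the dog as a block (log2 fold change -1.21, adjusted p = 5.60e-05, and -3.03, adjusted p = 2.08e-08).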

How the data were processed

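Neuroretina of 2 normal dogs, 1 library each, was profiled with 10x Genomics chemistry. With Cell Ranger 6.0.2, per the file headers, and canFam6, as the study names it, the authors deposited raw UMI counts per gene and called cell, without normalization. The 2 dogs were counted on different gene annotations, N350 by symbol and N354 by Ensembl identifier, and 17 names repeated in N354 were summed. Names that start with MT- marked 12 genes in N354 and 1, which is no mitochondrial gene, in N350, so that 13 mitochondrial genes were used instead.

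Cells with at least 200 genes were kept (8895 and 4387), with no mitochondrial limit, because such a limit removes nearly all rod bipolar-like cells of N354. A class needed at least 3 UMIs of its marker list from at least 2 genes, and at least a set level of the list in UMIs per 10000, which was 12 for bipolar cells, 300 for rods, 100 for cones, 150 for Müller glia, 20 for horizontal cells, 15 for amacrine and ganglion cells, 5 for astrocytes, 30 for microglia and 30 for vascular cells. These levels were set after marker levels had been looked at. Cells that passed several gates (203 and 93) or no gate (1121 and 156) were left out. Microglia (11 and 3 cells) were left out, and vascular cells entered the fits from N350 only (33 against 6 cells). The own threshold of Scrublet marked 0% and 0.0912% of cells, so it was not used to remove doublets, and removal of the 4% with the highest scores is an alternative.

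UMIs were added up by dog and class where a class had at least 20 cells, giving 19 sums, and fitted with edgeR 4.0.16 (TMM, quasi-likelihood test, class as the only term) in R 4.3.3 on genes listed in both dogs with at least 10 UMIs. The script was tested on simulated data. Over 9 classes and 36 pairs of classes, deviations of the sums of the same dog correlated with r between 0.403 and 0.826 (12141 genes), and all sums of one dog are of the same animal, so the fit with the dog as a block is given beside results it changes. The p-values rest on 2 dogs and on a spread estimated over all 19 sums together. The fit on class only takes the sums of a dog as independent. The fit with the block takes out the mean difference between the dogs, so its p-values do not measure the spread between dogs. Other computations used Python 3.11.15, scipy 1.17.1 and scanpy 1.11.5. Intervals are exact Poisson, Clopper-Pearson or conditional binomial at 95%, the floor is 3 counts per library, and thinned shares are expectations at 1000 UMIs over cells of at least that depth. Overlaps of genes were read from RefSeq genes of UU_Cfam_GSD_1.0, another build than the counts, as names only.

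The text names the 10 genes, 20 further genes of the cascade or synapse (1 more gene of that list is not reported here), and the 5 genes most like *GRM6* and *TRPM1* by Pearson r of log2(UMIs per 10000 + 0.5) among genes with at least 50 UMIs in each dog. Members and lists were chosen with earlier results of these data known.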

Additional observations from a re-analysis of the deposited data

How the results depend on the processing

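The mitochondrial limits decided most. With under 5% of UMIs on genes named MT-, N354 had 0 rod bipolar-like cells. Under 10% on 13 mitochondrial genes (chosen after seeing the data) it had 4 and N350 had 29. N350 alone thus stood for the class and was assumed to vary like the others. Against the classes outside the bipolar cells the median log2 fold change of the 10 genes was 6.08 and 5.86 under these limits, and 6.05 without a limit. Against rods 0 and 4 cascade genes were then higher, of 0 among 11918 and 65 among 11882 genes tested, with medians of 7.45 and 7.02. Against OFF bipolar-like cells 0 were under the first limit, of 0 among all genes, with a median of 3.36, and under the second this comparison could not be made. DESeq2 1.42.0 called 5 genes against OFF bipolar-like cells, adding *GRM6* (3.15, adjusted p = 0.000534) and *GNG13* (1.92, adjusted p = 0.00288), and the replicate block by dog 8. Raised gates left 2, without *TRPM1* (adjusted p = 0.0547) and *GPR179* (adjusted p = 0.0704) and with *GRM6* (adjusted p = 0.0195), and no filter on low counts added *GRM6* (adjusted p = 0.0437). Of all genes DESeq2 called 69 of 12141 higher than in OFF bipolar-like cells, with 2590 given no adjusted p, and the block 428. Raised gates called 35 of 12059 genes higher, and the fit with no filter 52 of 13580. Removal of doublets brought *LRIT3* under the threshold against rods (-5.25, adjusted p = 0.0409).

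Signs turned for genes that had not passed. Under the 10% limit *NYX* came to -2.94 and *LRIT3* to 0.71 against the classes outside the bipolar cells. Against rods *NYX* came to -3.98 and *RGS11* to -0.49. The rod bipolar-like cells of N350 then held 0 UMIs of *NYX* and 4 of *LRIT3*, so the size of the *NYX* values cannot be read. With 1 dog left out, with no test, *LRIT3* ranged from -0.14 to 0.066 against the classes outside the bipolar cells. Against OFF bipolar-like cells it ranged from -1.0 to 4.27, the higher value being that without N350. That value rests on 1 UMI of *LRIT3* in the rod bipolar-like cells of N354 and 0 in its OFF bipolar-like cells. The summed level of the 10 genes, 189.5 as a mean of the dogs, ranged from 168 to 211 with 1 dog left out and was 268.6 per 10000 UMIs of genes listed in both dogs without mitochondrial genes. With relative log expression in place of TMM the all-gene calls against OFF bipolar-like cells went from 54 higher and 57 lower to 43 and 79, and the all-gene median from 0.19 to 0.00, with the same counts of cascade genes. Over all genes the block called 1309 higher and 872 lower, 1325 and 1759, and 428 and 350 in the 3 comparisons, against 551 and 142, 460 and 313, and 54 and 57 without it. Depth limits *NYX*, with 27 UMIs in each dog.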

Other observations

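*CHTF18*, the gene whose annotated span overlaps that of *GNG13* by 38 bases, followed the bipolar classes as well, and it is named after its values were seen. It stood at 2.38 and 2.53 UMIs per 10000 in rod bipolar-like cells of N350 and N354, at 2.50 and 2.94 in the remaining bipolar cells, at 1.75 and 2.18 in OFF bipolar-like cells and at 0.0513 and 0.0256 in rods. It was higher in rod bipolar-like cells than in rods by edgeR's quasi-likelihood test (log2 fold change 5.80, SE 0.74, adjusted p = 0.000872) and did not pass against OFF bipolar-like cells (0.84, adjusted p = 0.821). Whether reads that fall on both spans entered the count of either gene was not tested. The overlap of *LRIT3* and *RRH* is 2267 bases in the same table, and rods held 135 and 5 UMIs of *RRH* beside 1058 and 271 of *LRIT3*.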
